A study of Mus musculus with 14 samples.

Results

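The genes described here are 39 mouse genes known to be induced by type I interferon, named as a list, and the values of one of them, Ifit2, are set against those of the others. They were taken from 14 one-colour Agilent arrays of blood RNA, 1 array per mouse, by matching each probe's RefSeq identifier to the listed symbols. A probe was matched for 37 of the 39 genes. Mx1 and Mx2 had no matched probe and are not analysed here. The probe of Ifi44 was well above background on 2 of 14 arrays and was not tested, which left 36 genes among 11481 named genes tested (24013 probes; 20022 genes had a matched probe). Of the 36, 33 were well above background on all 14 arrays, Eif2ak2 on 11 and Herc6 on 9. Usp18 was counted on 13, because its spot on the array of SS labelled female 20 was left out as an outlier.

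The mice of the SS group (n = 8) met a hostile social environment in the third week after birth, and those of the SI group (n = 6) were kept in social isolation as juveniles. All of them were then conditioned with cocaine at 5 mg/kg, a dose below the threshold for place preference, went through extinction and withdrawal, and were bled 24 hours later. The groups were 4 SS labelled male mice (1, 2, 3 and 01b), 4 SI labelled male mice (4, 5, 6 and 7), 4 SS labelled female mice (20, 21, 22 and 23) and 2 SI labelled female mice (27 and 28). The strain and the age at bleeding are not given in the sources used here, and no mouse without cocaine or without early social stress was included, so each comparison is between 2 kinds of early stress under the same drug.

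Type I interferons are secreted proteins that cells release when they sense viral nucleic acid. They bind a receptor on the same or neighbouring cells, which activates transcription factors that include STAT2 and IRF9, and these bind the interferon-stimulated response element in the promoters of antiviral genes. In blood, these transcripts are made by many leukocyte types at once and usually go up and down together, which is why they are often read as 1 signature.

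Blood cells were obtained by lysing red cells and were called PBMC in the labels, with no gradient or sort named. Markers of neutrophils (12 tested) and of platelets and their precursor the megakaryocyte (16 tested) were well above background on all 14 arrays, and markers of red cells on most. In such bulk RNA, fewer cells of a type and less RNA per cell cannot be told apart. Between 34.8% and 47.7% of spots were well above background, and the number of arrays limits the precision. Correlations between arrays of a group were at least 0.927, except those of SI labelled male 4, whose lowest was 0.833. The labelled males lie on 1 slide and the labelled females on the other, so slide and sex label are the same term. SS and SI arrays lie in different columns of both slides, so column and stress group cannot be told apart. The Y-linked genes Eif2s3y and Ddx3y gave a signal well above background in 0 of the 8 labelled males and in all 6 labelled females, against the labels, and the sex labels are therefore used only as names of groups.

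The promoters of the 3 Ifit genes are shown because Ifit2 is set against its own family, whose members are known for this shared element. The sequences are the 250 bases before each start site, 5′ to 3′ on the strand of the gene, from RefSeq on GRCm38.p6. Capitals mark GAAANNGAAA, a spelling of the core of the interferon-stimulated response element, or its reverse complement TTTCNNTTTC. Ifit1 (chr19:34640639-34640888, plus strand) and Ifit3 (chr19:34583279-34583528, plus strand) each held 2 matches, and neither of the 2 windows of Ifit2 (chr19:34550444-34550693 and chr19:34550838-34551087, plus strand) held one. Isg15 (chr4:156200819-156201068, minus strand) is shown for its 3 overlapping matches, Rsad2 (chr12:26456453-26456702, minus strand) as the gene with the widest spread between mice, and Trim21 (chr7:102565483-102565732, minus strand) as the other gene that passed the test.
Ifit1: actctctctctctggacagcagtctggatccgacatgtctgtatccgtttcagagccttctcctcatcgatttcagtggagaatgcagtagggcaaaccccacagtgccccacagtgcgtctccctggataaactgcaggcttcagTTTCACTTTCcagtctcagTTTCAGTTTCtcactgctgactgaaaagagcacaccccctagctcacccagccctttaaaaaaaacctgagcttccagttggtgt
Ifit3: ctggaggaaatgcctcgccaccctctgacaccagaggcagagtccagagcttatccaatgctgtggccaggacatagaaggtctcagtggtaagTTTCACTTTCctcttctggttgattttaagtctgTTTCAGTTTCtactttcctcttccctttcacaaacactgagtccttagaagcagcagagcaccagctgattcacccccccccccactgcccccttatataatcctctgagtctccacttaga
Ifit2, upstream start: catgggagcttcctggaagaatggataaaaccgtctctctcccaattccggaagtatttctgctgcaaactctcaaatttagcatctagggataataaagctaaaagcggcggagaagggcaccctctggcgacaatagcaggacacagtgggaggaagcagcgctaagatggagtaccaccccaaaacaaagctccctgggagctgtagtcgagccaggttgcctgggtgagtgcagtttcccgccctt
Ifit2, downstream start: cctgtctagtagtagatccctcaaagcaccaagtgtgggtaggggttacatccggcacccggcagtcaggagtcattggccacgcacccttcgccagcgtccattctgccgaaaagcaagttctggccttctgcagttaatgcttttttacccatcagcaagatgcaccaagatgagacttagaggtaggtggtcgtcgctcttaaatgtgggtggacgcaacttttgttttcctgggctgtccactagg
Isg15: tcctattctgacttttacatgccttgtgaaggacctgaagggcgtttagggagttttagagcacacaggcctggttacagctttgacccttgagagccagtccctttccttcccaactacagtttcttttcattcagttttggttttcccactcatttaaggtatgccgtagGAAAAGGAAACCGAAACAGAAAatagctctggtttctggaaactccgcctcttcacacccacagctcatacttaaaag
Rsad2: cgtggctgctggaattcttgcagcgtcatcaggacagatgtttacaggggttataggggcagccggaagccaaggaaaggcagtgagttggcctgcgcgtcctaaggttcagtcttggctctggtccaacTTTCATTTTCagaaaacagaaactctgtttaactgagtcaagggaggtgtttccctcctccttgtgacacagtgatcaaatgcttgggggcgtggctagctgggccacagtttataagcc
Trim21: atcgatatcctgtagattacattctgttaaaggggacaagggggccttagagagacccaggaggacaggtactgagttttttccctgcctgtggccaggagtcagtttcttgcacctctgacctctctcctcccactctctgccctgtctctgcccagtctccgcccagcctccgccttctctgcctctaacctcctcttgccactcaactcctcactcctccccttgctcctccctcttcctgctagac

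The nearest match ended 75 bases before the start in Ifit1, 112 in Ifit3, 56 in Isg15 and 110 in Rsad2. The promoter table held 30 of the 39 genes, and 11 of these 30 had a match (36.7%), against 936 of 27025 genes in the whole table (3.46%) and 978 of 32851 promoters (2.98%). The 11 were Bst2, Gbp2, Gbp3, Ifit1, Ifit3, Isg15, Oas1a, Oas3, Rsad2, Stat2 and Trim30a. No match says only that these letters are not in this window; the motif as searched is 1 spelling of a variable element.

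Across all mice, 1 of the 36 genes rose in SS and 1 fell. Ifit2, a protein that binds viral RNA and blocks its translation, rose 2.37-fold, by 1.24 ± 0.23 on the log2 scale (SE; limma adjusted p = 0.00483 over all 24013 probes). Trim21, a cytosolic antibody receptor and ubiquitin ligase, fell by 0.71 ± 0.20 (limma adjusted p = 0.0450). This call was lost in 12 of the 14 fits that left out 1 mouse (limma adjusted p up to 0.111; kept without SI labelled male 4 or 7) and in 3 of the 10 other settings. Over all named genes, 8.61% rose and 0.958% fell in this comparison. The difference was below 0 for 32 of the 36 genes and for 62.5% of all named genes. The median difference was -0.39 for the 36 genes, -0.04 for all probes tested and -0.14 for all named genes. Without SI labelled male 4, whose array stood apart, Dhx58 and Dtx3l fell as well, in a fit where 20.8% of all named genes changed and 10.8% rose. Every difference below is SS minus SI on the log2 scale, with its SE.

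**Figure D1:**
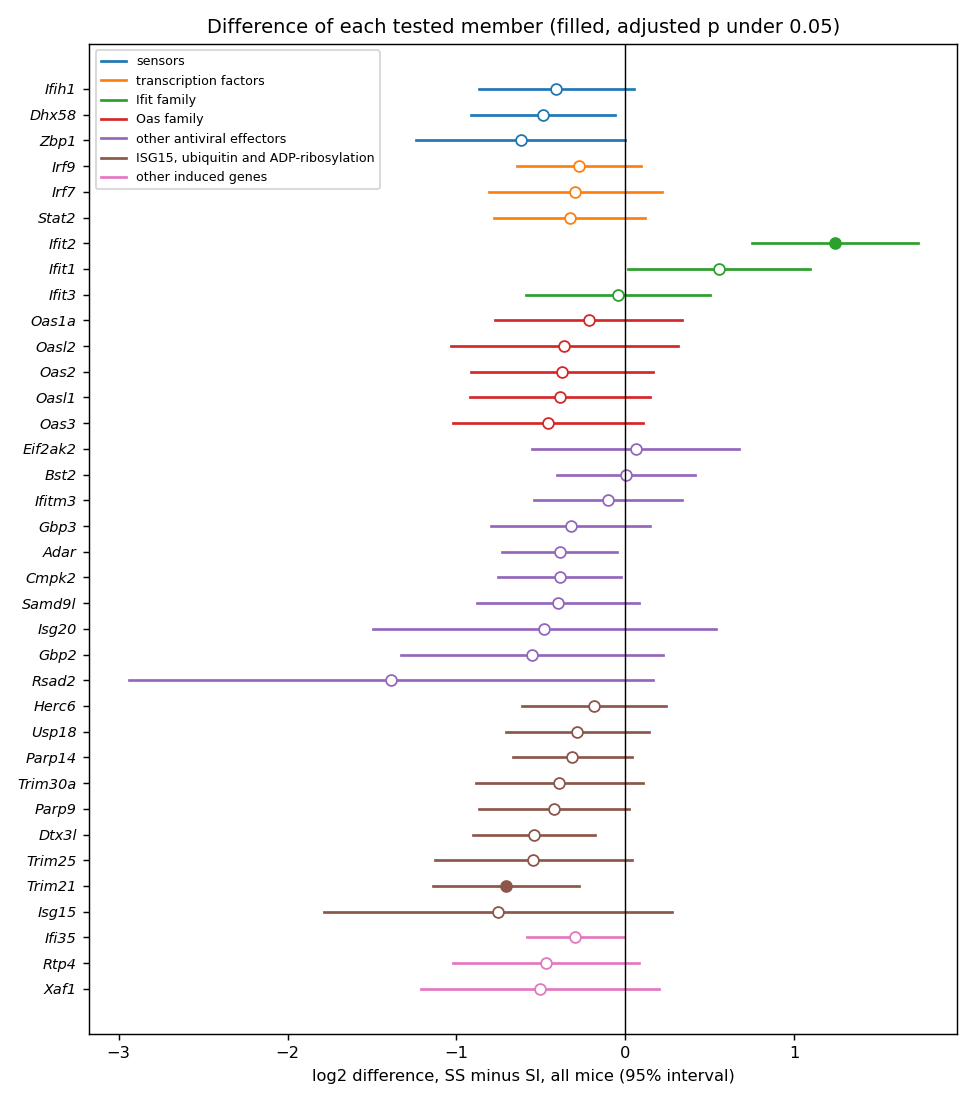
Log2 difference SS minus SI in all mice (8 SS and 6 SI) for each of the 36 genes tested, with its 95% interval, grouped and coloured by role; filled points have a limma adjusted p under 0.05. Ifit2 lies at 1.24 and Trim21 at -0.71, and 32 of the points lie left of 0.

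Ifit2 is described first, array by array. Levels are log2 signals relative to the 75th percentile of the array, taken over probes measured above background throughout, so they compare mice within a gene and not genes with each other. In SI labelled males Ifit2 stood at -1.79 in mouse 4, -2.29 in mouse 5, -2.89 in mouse 6 and -1.86 in mouse 7. In SS labelled males it stood at -0.42 in mouse 1, -0.96 in mouse 2, -1.68 in mouse 3 and -1.34 in mouse 01b. Every SS labelled male lay above every SI labelled male, by a narrow gap between SS mouse 3 and SI mouse 4. In labelled females it stood at -3.01 and -3.39 in SI mice 27 and 28, and at -2.01, -1.77, -1.64 and -1.61 in SS mice 22, 20, 23 and 21. These groups did not overlap either, and Ifit2 was the only one of the 36 genes whose groups were apart in the same direction on both slides. Over all named genes, 6.31% were apart on both slides with SS higher and 0.784% with SS lower.

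The mean of Ifit2 was -1.10 ± 0.54 (SD, n = 4) in SS against -2.21 ± 0.50 (n = 4) in SI labelled males. In labelled females it was -1.76 ± 0.18 (SD, n = 4) against -3.20 ± 0.27 (n = 2). By exact permutation of the stress groups within sex labels, the difference over all mice had a two-sided p of 0.000952, the smallest that 1050 assignments can give. This p is unadjusted, and Ifit2 was set apart with earlier results of these data known, so it adds no separate support. The difference was 1.11 ± 0.30 in labelled males (limma adjusted p = 0.0850) and 1.45 ± 0.37 in labelled females (limma adjusted p = 0.0451). The 2 differences were not shown to differ (0.34 ± 0.47, limma adjusted p = 0.740). Without the sex label as a term the difference over all mice was 1.11 and missed the threshold (limma adjusted p = 0.0540). In the authors' deposited log2 values, fitted the same way, it was 2.19 (limma adjusted p = 0.0173), and 2.76 in labelled males (limma adjusted p = 0.0512). With those values the difference in labelled females did not pass (limma adjusted p = 0.466).

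The other members of the family, which lie near Ifit2 on chromosome 19, had other values. Ifit1, which binds capped viral RNA, stood between -4.07 and -3.36 in SI labelled males and between -3.58 and -2.81 in SS labelled males. The SI labelled females had -3.35 and -4.45 and the SS labelled females -3.85, -2.86, -4.04 and -2.94. The groups overlapped on both slides, and the difference of 0.56 ± 0.25 did not pass (limma adjusted p = 0.228). Ifit3 stood between -1.38 and -1.01 in SI labelled males and, in SS labelled males 1, 2, 3 and 01b, at -1.46, -0.9996, -1.54 and -1.37. The SI labelled females had -0.58 and -1.70, and SS mice 22, 20, 23 and 21 had -1.01, -0.49, -2.02 and -0.52. The SI values lay inside the range of the SS values on both slides, and the difference of -0.04 had a 95% interval from -0.59 to 0.50 (limma adjusted p = 0.939). Its close copy Ifit3b, whose RNA the probe may also bind, differed by -0.28 ± 0.32.

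**Figure D2:**
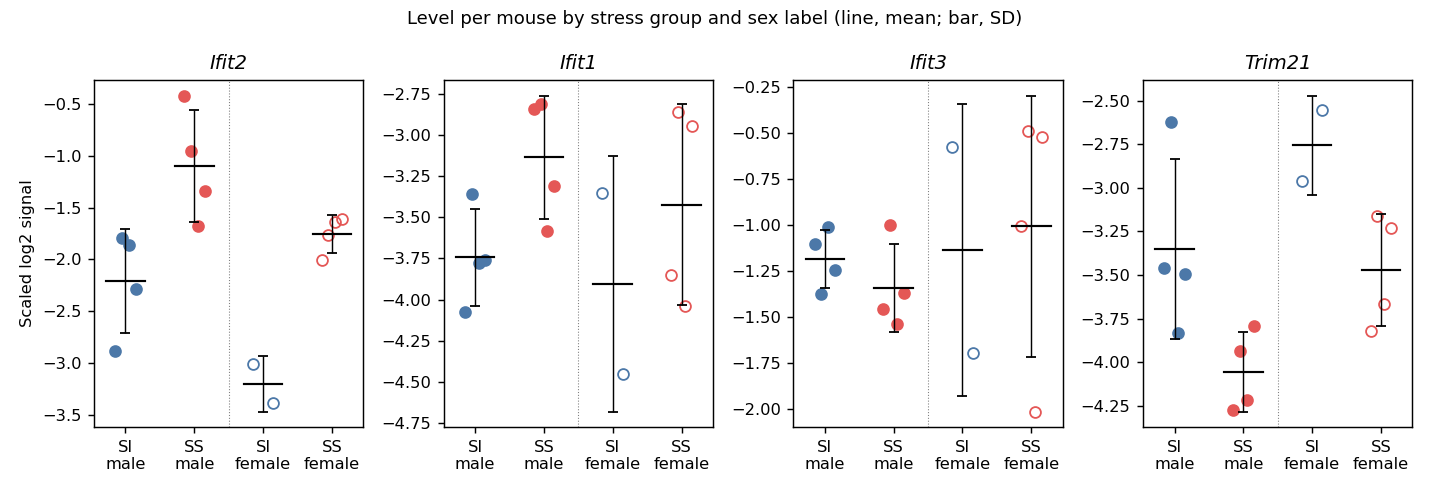
Scaled log2 signal of Ifit2, Ifit1, Ifit3 and Trim21 in each mouse (filled, labelled males; open, labelled females; blue, SI; red, SS), with the group mean as a line and the SD as a bar; each panel has its own scale. Ifit2 is higher in every SS mouse than in the SI mice of the same slide, Ifit3 overlaps on both slides, and Trim21 overlaps among labelled males only through SI mouse 7.

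To set Ifit2 against the others directly, the log2 ratio of Ifit2 to each gene was taken on each array. The ratio was higher in SS for 34 of 34 genes (Usp18 was left out for a missing value) and for 96.6% of all named genes. Among the 34 it was higher by 0.69 for Ifit1 up to 2.63 for Rsad2, with a median of 1.63. All 34 passed an exact permutation test within sex labels (two-sided, adjusted over the ratios to all 11457 named genes; adjusted p from 0.00666 to 0.0289). Ifit2 itself enters each ratio, and the ratio to 82.3% of all named genes passed as well, with a median over all of them of 1.39. For 16 of the 34 genes the ratio was apart on both slides, against 8.77% of all named genes. Ifit2 alone already had the smallest p these assignments can give (exact permutation p = 0.000952), so passing says little about the other gene of a ratio. The ratio to Ifit3 was higher in SS by 1.29 (exact permutation adjusted p = 0.00666, a value shared with most of the 34).

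Levels of Ifit2 moved with those of platelet markers. Across all mice the 16 platelet and megakaryocyte markers all rose in SS, against 8.61% of all named genes, with a median difference of 1.58. In labelled males none of the 16 passed (0% of all named genes), and in labelled females 13 rose (3.94% of all named genes). SS and SI arrays were apart on both slides, with SS higher, for 9 of the 16, against 6.31% of all named genes. None of the markers was below background on any array. Their summed signal, in units of the same 75th percentile, ranged from 116 to 464 in SI and from 469 to 825 in SS labelled males, and from 144 to 183 in SI and from 504 to 619 in SS labelled females. With group means removed, Ifit2 correlated with the mean platelet marker level at r = 0.85 over the 14 arrays, the highest of the 36 genes, while 10 of the 36 stood below -0.5 and Ifit3 at -0.17. Cell marker levels differed between arrays of the same group, and the value is a description only. The same shares over all named genes were not taken. The part of the platelet markers in the difference of Ifit2 was not tested.

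**Figure D3:**
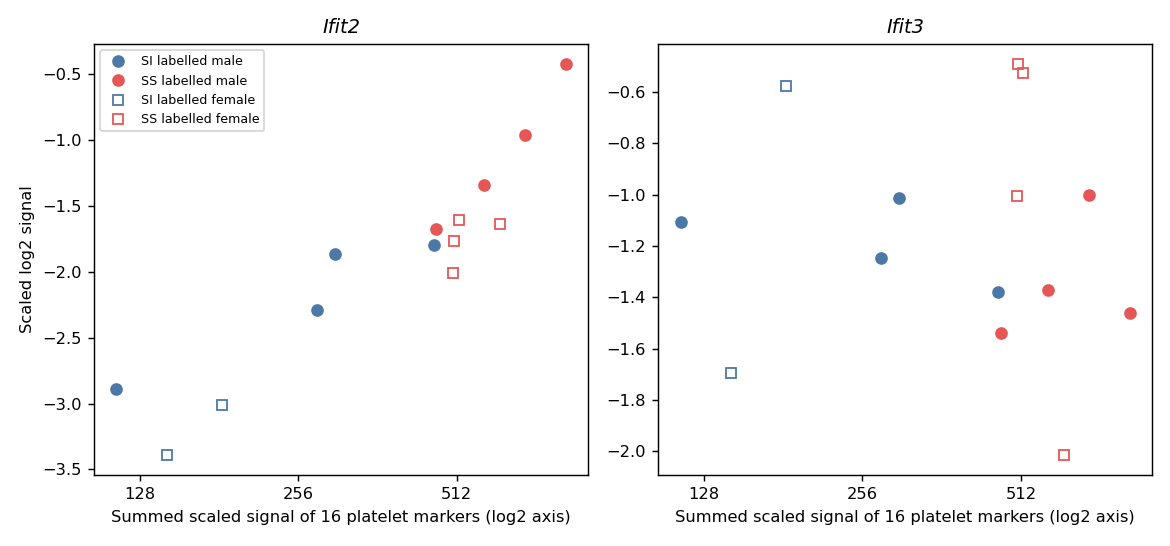
Scaled log2 signal of Ifit2 (left) and Ifit3 (right) in each mouse against the summed scaled signal of 16 platelet markers (log2 axis; blue, SI; red, SS; filled circles, labelled males; open squares, labelled females). Ifit2 is at or below -2.89 in the 3 mice whose sum lies between 116 and 183 and highest, at -0.42, in the mouse with a sum of 825, and Ifit3 shows no such order.

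The 10 genes whose levels were most like Ifit2 among mice of the same group were sought over 11480 named genes. They were Uba7 (r = 0.97), H2ac20, H4c14, Dynlt1c, H2aj, H2ac12, Uqcr11, Sh3bgrl3, Atf5 and Ap1s1 (r = 0.96 each), over 14 arrays. H2ac20, H4c14, H2aj and H2ac12 encode histones, whose near-identical copies may share signal. Uba7, the activating enzyme for ISG15, is itself known to be induced by interferon. It had a difference of 1.04 ± 0.21 (limma adjusted p = 0.00676). No gene of the list of 39 was among the 10. The nearest was Ifit1, at r = 0.59 and rank 1023, and 16 of the genes had a negative correlation with Ifit2.

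The 3 sensors had differences below 0 and did not pass. Ifih1 (MDA5) and Dhx58 (LGP2) bind viral double-stranded RNA in the cytosol, and Zbp1 binds left-handed nucleic acid and can start necroptosis. Dhx58 stood at -2.04 and -1.94 in the SI labelled females and at -2.45, -2.76, -3.39 and -2.85 in the SS labelled females, with no overlap. In labelled males it ranged from -3.52 to -2.64 in SI and from -3.34 to -3.04 in SS, inside the SI range. The difference over all mice was -0.49 ± 0.20 (limma adjusted p = 0.179). Zbp1 was 0.88 in SI labelled female 27 and between -2.39 and -0.41 in every other mouse, with a difference of -0.62 ± 0.29 (limma adjusted p = 0.245). Its second probe gave 0.02. Ifih1 had a difference of -0.41 ± 0.21 (limma adjusted p = 0.304).

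The 3 transcription factors also did not pass. Irf7, which amplifies interferon transcription, had a difference of -0.30 ± 0.24, Irf9, the DNA-binding partner of STAT2, -0.27 ± 0.17, and Stat2 -0.33 ± 0.21 (limma adjusted p = 0.505, 0.392 and 0.401). Irf9 ranged from -0.87 to -0.03 in SI and from -0.90 to -0.50 in SS labelled males, and from -0.17 to 0.39 in SI and from -0.17 to 0.07 in SS labelled females. The lowest SI labelled male for both Irf9 and Stat2 was mouse 4. Without that mouse both fell in SS labelled males, as described below.

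The 5 genes of the oligoadenylate synthetase family, which activate RNase L or bind double-stranded RNA, moved over a narrow band. Their differences ran from -0.46 for Oas3 to -0.22 for Oas1a, whose second probe gave -0.10, and none passed. Oas1a stood at 1.43 in SI labelled female 27 and -0.59 in SS labelled female 23, with the other 12 mice between -0.08 and 0.87. Oas3 stood at -2.07 in SI labelled male 4, -2.04 in SI labelled female 27 and -4.24 in SS labelled female 23, and between -3.38 and -2.73 in the other 11. For both genes the span between single mice was far wider than the difference between the groups. Oasl2 was apart in labelled males, from -0.53 to -0.15 in SI and from -0.72 to -0.57 in SS, but overlapped in labelled females.

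Of the 10 other antiviral effectors tested, none passed, and 8 had a difference below 0. Rsad2 (viperin), which makes a chain-terminating nucleotide, had the largest difference of the list, -1.39, with an SE of 0.72 and a 95% interval from -2.94 to 0.17 (limma adjusted p = 0.303). In labelled males it was 5.87, 2.90, 2.89 and 0.59 in SI mice 4, 5, 6 and 7, and 2.68, 2.93, 0.51 and 3.42 in SS mice 1, 2, 3 and 01b. The 2 groups overlapped, and 1 array on each side stood far below the rest. The SI labelled females had 3.26 and 4.19, and the SS labelled females 0.40, 1.96, 0.78 and 1.96 (mice 22, 20, 23 and 21), with no overlap. Isg20, an exonuclease of single-stranded RNA, had the same high mouse (6.05 in SI labelled male 4, against 2.47 to 4.47 in the other 13).

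Eif2ak2 (PKR), which stops translation on sensing double-stranded RNA, differed by 0.06 ± 0.29, Bst2 (tetherin), which holds budding virus at the surface, by 0.00 ± 0.19, and Ifitm3, which blocks entry through endosomes, by -0.10 ± 0.20. Bst2 had a 95% interval from -0.41 to 0.41. Adar, an editor of double-stranded RNA, differed by -0.39 ± 0.16, and the mitochondrial kinase Cmpk2 by -0.39 ± 0.17 (limma adjusted p = 0.180 and 0.209), and the second probe of Adar gave -0.23. Cmpk2 was apart in labelled males, from -3.06 to -2.77 in SI and from -3.53 to -3.15 in SS, and its second probe gave -0.09. Gbp2, a guanylate-binding protein, stood at 1.08 in SI labelled female 27 and -1.47 in SI labelled female 28, a wider gap than between any 2 labelled males, and differed by -0.55 ± 0.36 over all mice (limma adjusted p = 0.411). Samd9l, a growth-restricting antiviral factor, and Gbp3 differed by -0.40 ± 0.22 and -0.32 ± 0.22.

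The 9 genes of ISG15 conjugation, ubiquitination and ADP-ribosylation had differences below 0, and 1 of them, Trim21, fell. Trim21 stood at -2.62, -3.49, -3.46 and -3.83 in SI labelled males 4, 5, 6 and 7 and at -4.27, -3.93, -4.22 and -3.79 in SS labelled males 1, 2, 3 and 01b. The overlap came from SI mouse 7, which lay below SS mouse 01b. In labelled females it was -2.96 and -2.55 in SI and -3.82, -3.16, -3.66 and -3.23 in SS mice 22, 20, 23 and 21, with no overlap. The difference was -0.70 ± 0.27 in labelled males and -0.71 ± 0.33 in labelled females (limma adjusted p = 0.145 and 0.312). The settings that lost the call in all mice were median scaling, no filter on dim probes and no sex label term, and with normexp background correction the difference was -0.40 (limma adjusted p = 0.00909).

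Isg15, a ubiquitin-like protein that is joined to newly made proteins, was 4.67 in SI labelled male 4 and between 1.53 and 2.07 in the other SI labelled males, against 1.04 to 2.63 in SS labelled males. In labelled females it was 3.19 and 3.22 in SI and between 1.13 and 2.83 in SS, with no overlap. The difference was -0.75 ± 0.48, and -0.91 ± 0.41 with its second probe (limma adjusted p = 0.402 and 0.231). Usp18, which removes ISG15 and restrains the receptor, differed by -0.28 ± 0.20. Its only spot on SS labelled female 20 was marked as an outlier by the scanner software, at 104847 against 58.6 to 289 elsewhere, and was left out; with it the difference was 0.71.

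Dtx3l and Parp9 form a ubiquitin ligase and ADP-ribosylation pair. Dtx3l ranged from -1.26 to -0.55 in SI and from -1.78 to -1.37 in SS labelled males, with no overlap, and its difference over all mice was -0.54 ± 0.17 (limma adjusted p = 0.0688). Its second probe gave 0.07. Parp9 differed by -0.42 ± 0.21, Parp14 by -0.31 ± 0.16, Trim25, the ligase that activates RIG-I, by -0.54 ± 0.27, Trim30a by -0.39 ± 0.23 and the ISG15 ligase Herc6 by -0.19 ± 0.20, and none passed. The induced genes Ifi35, Xaf1 and Rtp4 differed by -0.30 ± 0.13, -0.51 ± 0.33 and -0.47 ± 0.26 and did not pass either, and the second probe of Xaf1 gave -0.27.

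Within labelled males 7 of the 36 genes had an unadjusted limma p under 0.05, beside 5703 of the 24013 probes tested. None of the 36 passed limma at an adjusted p of 0.05, and 0% of all named genes passed. With normexp background correction 2 did, Ifit2 and Trim21. Without SI labelled male 4, the array that stood apart, 9 passed: Ifit2 rose and Irf9, Stat2, Adar, Samd9l, Trim25, Trim30a, Parp9 and Dtx3l fell, while 16.9% of all named genes rose and 27.3% fell. In labelled males 1 gene was apart with SS higher, Ifit2, and 3 with SS lower (Oasl2, Cmpk2 and Dtx3l), against 8.54% and 1.79% of all named genes.

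Within labelled females Ifit2 alone passed, against 3.94% of named genes that rose and 1.03% that fell. The groups were apart for Ifit2 with SS higher and for 6 genes with SS lower (Dhx58, Isg20, Rsad2, Isg15, Trim21 and Ifi35), against 19.0% and 19.7% of all named genes. The call for Ifit2 was lost in 10 of the 14 fits that left out 1 mouse (kept only without labelled male 1, 3, 4 or 6), and in 5 of the 9 other settings. Without SI labelled male 4 the sensor Dhx58 fell as well, and 6.56% of all named genes rose and 3.07% fell. No gene of the list differed between the sex labels in its difference (limma; 0 of 36, lowest adjusted p = 0.466, for Samd9l), and 0.0610% of all named genes did. Samd9l differed by -0.70 ± 0.27 in labelled males and 0.06 ± 0.33 in labelled females.

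**Figure D4:**
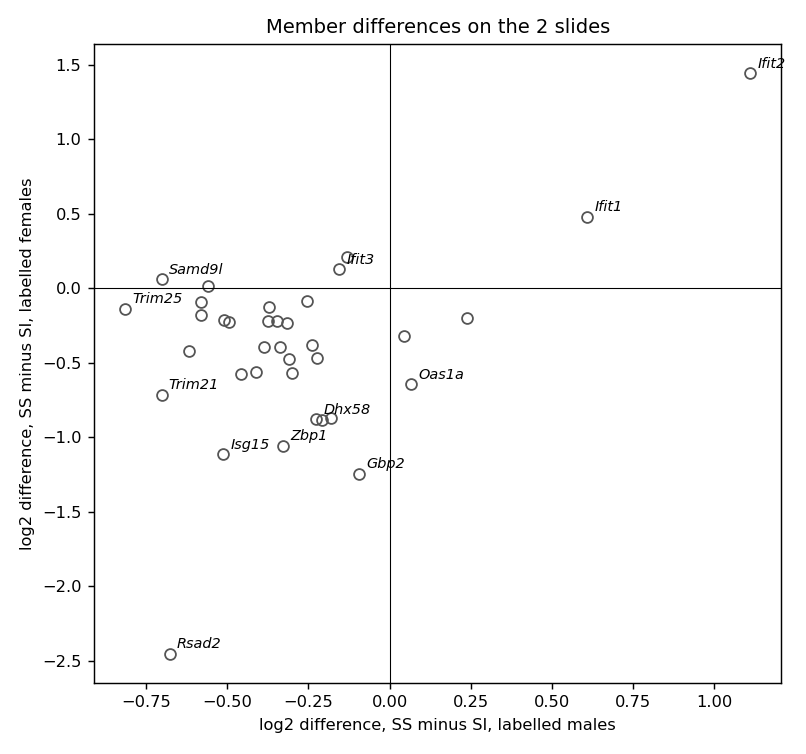
Log2 difference SS minus SI in labelled males (x axis, slide 1, 4 SS and 4 SI) and in labelled females (y axis, slide 2, 4 SS and 2 SI) for each of the 36 genes. Ifit2 (1.11 and 1.45) and Ifit1 (0.61 and 0.48) lie alone in the upper right, and Rsad2 (-0.68 and -2.45) is lowest.

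Apart from the stress groups, many of the genes shared their ups and downs among mice, though the same share over all named genes was not taken. With group means removed, 19 of the 36 genes correlated with the mean of the others at r above 0.5 and 12 above 0.8. These values rest on 14 arrays that were scaled by the same rule. Ifih1 (0.94), Ifit3 (0.93), Oas1a (0.92), Usp18 (0.92) and Rtp4 (0.89) led. Over the 630 pairs the median r was 0.42, with Irf7 and Oas3 at 0.95. Ifit2 stood at 0.08, and at 0.30 when arrays were scaled by the percentile of all probes. The array of SI labelled female 27 held the highest level of 17 of the 36 genes and that of SS labelled female 23 the lowest of 14, and without SI labelled female 27 the median difference of the 36 went from -0.39 to -0.24.

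Beside this main group there was a set of genes that followed other arrays. Isg20 and Rsad2 correlated at 0.94, Isg15 and Rsad2 at 0.91 and Isg15 and Xaf1 at 0.92, and all 4 were highest in SI labelled male 4, while Trim25 ran against Isg20 at -0.92. These genes moved with the 6 red cell markers tested, whose mean level correlated with Rsad2 at 0.98, with Isg20 at 0.95, with Trim21 at 0.88, with Isg15 at 0.87 and with Trim25 at -0.94. The summed signal of the red cell markers ranged from 480 to 2532 in SI and from 644 to 1606 in SS labelled males, with its highest value in SI mouse 4, and from 1164 to 1963 in SI and from 486 to 1004 in SS labelled females. Up to 2 of the 6 were not above background on an array, and none of the 6 rose or fell. The part of the red cell markers in the differences of these genes, Trim21 included, was not tested.

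Levels of monocyte markers went along with those of many genes of the main group. The mean level of these markers correlated above 0.5 with 18 of the 36 genes, Oasl2 (0.89) and Rtp4 (0.86) the highest. With Ifit2 it correlated at 0.12. The share of all named genes above 0.5 was not taken. Of the 9 monocyte markers 7 had a difference below 0 and 1, F13a1, rose (1.30 ± 0.26, limma adjusted p = 0.00652); F13a1 is a coagulation factor subunit that platelets carry too. Csf1r, the receptor for the macrophage growth factor, differed by -0.63 ± 0.21 (limma adjusted p = 0.0867). The summed signal of the 9 overlapped between the stress groups on both slides. In labelled males it ranged from 25.1 to 32.2 in SI and from 27.6 to 43.4 in SS, and in labelled females from 23.0 to 52.3 in SI and from 28.0 to 34.3 in SS. The 52.3 belonged to SI labelled female 27, the mouse with the highest level of 17 of the 36 genes.

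Neutrophil markers were lower in SS labelled females, where 7 of 12 fell, against 1.03% of all named genes. Their sum there ranged from 486 to 737 in SI, which rests on 2 mice, and from 154 to 192 in SS. In labelled males 9 of the 12 had a difference above 0, with a median of 0.29, and none passed limma at an adjusted p of 0.05. An unadjusted limma p under 0.05 was held by 4 of the 12 and by 5703 of the 24013 probes tested. The sum in labelled males ranged from 167 to 258 in SI and from 256 to 287 in SS. The difference itself differed between the sex labels for 4 of the 12, against 0.0610% of all named genes. The 4 were Camp, Lcn2, Ltf and Ngp (limma adjusted p from 0.0151 to 0.0356).

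Of the 4 markers shared by all white cells, Laptm5 rose (0.63 ± 0.13, limma adjusted p = 0.00852), and Ptprc, Lcp1 and Coro1a differed by -0.44, -0.49 and -0.39 and did not pass. Their mean level correlated above 0.5 with 12 of the 36 genes, Irf9 (0.89) the highest, and below -0.5 with 7, Isg20 (-0.86) the lowest. None of the 6 NK cell markers passed, and their sum ranged from 15.8 to 17.1 in SI and from 3.29 to 7.30 in SS labelled females, with no overlap, and from 1.34 to 9.42 in SI and from 1.47 to 7.51 in SS labelled males. None of the 8 B cell markers passed. Their median difference was 0.00 over all mice, -0.52 in labelled males (7 of 8 below 0) and 0.61 in labelled females (8 of 8 above 0). Their mean level correlated below -0.5 with 18 of the 36 genes. The sums of the plasmacytoid dendritic cell markers, the cells known for interferon secretion, overlapped on both slides. The mean level of these markers correlated below -0.5 with 14 of the 36 genes and above 0.5 with 0. That of the conventional dendritic cell markers correlated above 0.5 with 9 of the 36 genes and below -0.5 with 0. The shares of all named genes past these correlation cuts were not taken. The part of these cell types in the values of the 36 genes was not tested.

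**Figure D5:**
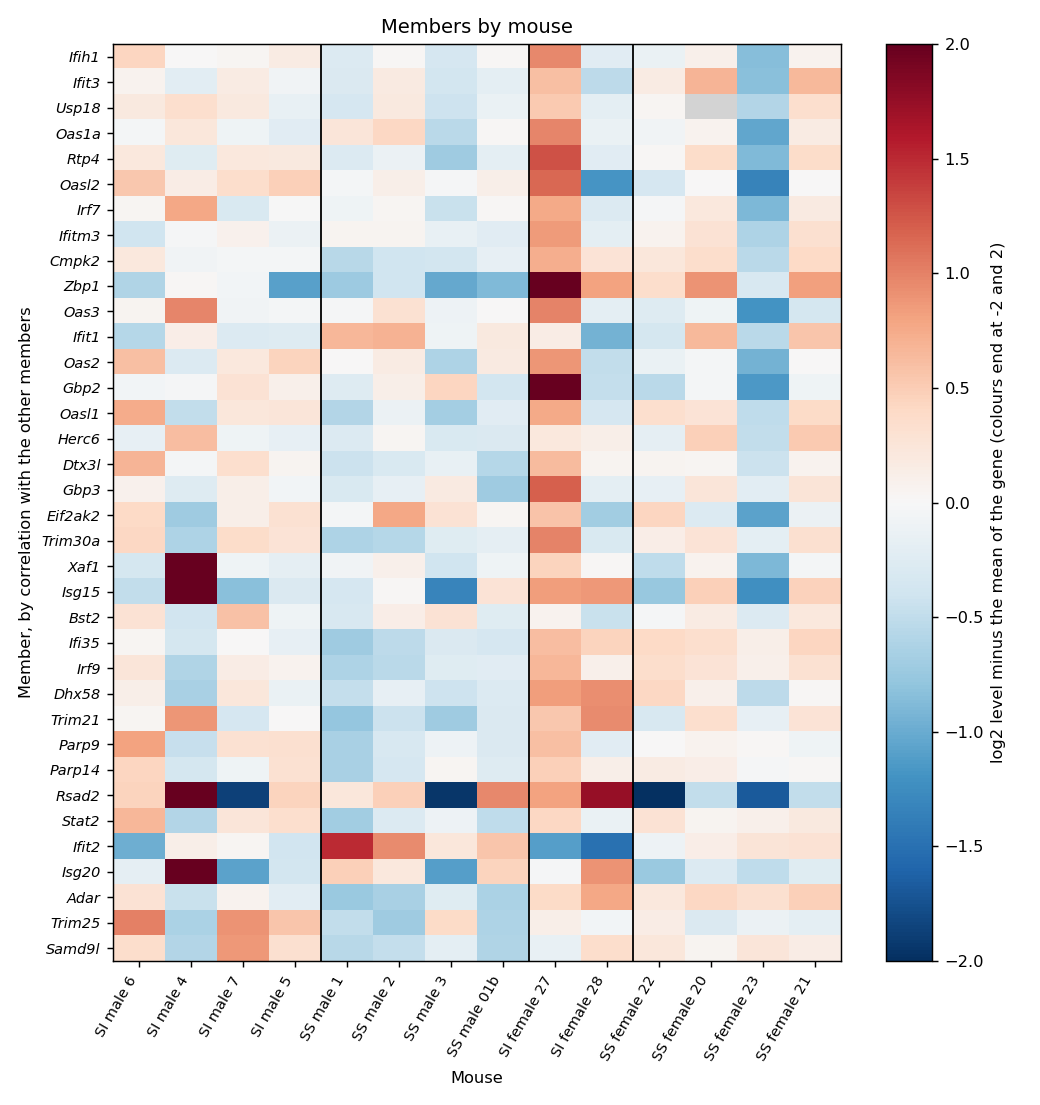
Level of each of the 36 genes in each of the 14 mice, as log2 signal minus the mean of the gene (red, above; blue, below; colours end at -2 and 2; grey, missing), ordered by correlation with the other genes; black lines divide the 4 groups. SI female 27 is red and SS female 23 blue for most genes near the top, Ifit2 is lowest in the SI females, and Xaf1, Isg15, Rsad2 and Isg20 are darkest in SI male 4.

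The rest of the pathway was read from 120 further genes, of which 99 were tested: 4 rose, 2 fell, and 77 had a difference below 0, with a median of -0.27. Of all named genes, 8.61% rose, 0.958% fell and 62.5% had a difference below 0, with a median of -0.14. Among 5 ligand genes none passed in limma, with 1 at an unadjusted p under 0.05, and the widest was 1.02 ± 0.45 for Ifna11 (limma adjusted p = 0.216). All 6 receptor chains had a difference below 0, and 1 fell, Ifngr1, a chain of the interferon gamma receptor (-0.76 ± 0.21, limma adjusted p = 0.0363). The type I receptor chains Ifnar1 and Ifnar2 differed by -0.22 ± 0.21 and -0.52 ± 0.18 and did not pass. Of 16 signalling genes none passed in limma, and 5 were at an unadjusted p under 0.05, as were 4889 of the 24013 probes tested. The feedback inhibitor Socs3 stood lowest of the 16, at -1.21 ± 0.39 (limma adjusted p = 0.0778).

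Of 19 upstream sensing genes 1 rose, Mavs, the mitochondrial adaptor of the RNA sensors (0.83 ± 0.15, limma adjusted p = 0.00471). Mavs was apart on both slides with SS higher, as were 6.31% of all named genes. The lowest of these genes was Myd88, the adaptor of Toll-like receptors, at -0.73 ± 0.29 (limma adjusted p = 0.159). Of 53 other induced genes 3 rose, Uba7, the GTPase Igtp (1.13 ± 0.24, limma adjusted p = 0.00926) and the secreted lectin ligand Lgals3bp (1.10 ± 0.25, limma adjusted p = 0.0132), and 1 fell, the RNA helicase Mov10 (-0.53 ± 0.14, limma adjusted p = 0.0330). The largest difference among them, 1.26 ± 0.48 for Trim12c, did not pass (limma adjusted p = 0.140), nor did the lowest, -0.98 ± 0.79 for Ube2l6 (limma adjusted p = 0.499). In the promoters of Mavs, Uba7 and Lgals3bp no match to the motif was found, and Igtp held 1. Among the 36 genes the median difference was -0.33 for the 11 with a match and -0.39 for the 18 with a window and no match.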

How the data were processed

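The authors deposited 1 scanner file per mouse; per the file headers its processed signals are fluorescence intensity after background subtraction (Feature Extraction 10.7.3.1; the submitters' processing notes give 9.1), with flags as a score for background and outlier spots. The deposited value table is on the log2 scale, normalized in a way not given in the sources used here. Spots marked as outliers were left out and spots of a probe averaged. Each array was scaled to the 75th percentile of 14483 probes well above background on all 14 arrays. Probes well above background on at least 6 arrays were tested, and a gene was represented by its brightest tested probe. Symbols came from a RefSeq table (26425 of 31063 identifiers matched); array positions were not used.

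SS was compared with SI by limma 3.58.1 in R 4.3.3, with sex label as a term in all mice and with 4 group means otherwise, adjusted by Benjamini-Hochberg at 0.05. P-values measure the spread between the sampled mice. Every gene tested is named. Levels were planned for Ifit1 to Ifit3, those that passed, and per role the brightest and the extremes. Levels of some others, among them Gbp2, Cmpk2 and Oasl2, are given outside this rule. The genes, lists and tests were chosen with earlier results of these data known, and the ratio test and the setting that keeps outlier spots were added after seeing the values. The code was tested on simulated data.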

Additional observations from a re-analysis of the deposited data

Results flagged for a closer look

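Over the 36 genes, 11 groups of 4 mice held 1 mouse far from the other 3. Its gap to the nearest was above Dixon's 95% critical value. This was 10.3% of the groups of 4 checked. The nominal rate of about 1 in 20 is for independent groups, whereas these genes share the same mice and many vary together. The same share over all named genes was not taken, so no excess over chance is shown. SI labelled male 4, the array that correlates least with its group, was high for Oas3 (-2.07, others -3.11 to -2.99), Herc6 (-4.73, others -5.52 to -5.44) and Xaf1 (1.35, others -0.99 to -0.73) and low for Trim30a (-2.22, others -1.32 to -1.18) and Rtp4 (0.617, others 1.06 to 1.07). SS labelled female 23 was low for Oas2 (-2.005, others -1.20 to -1.05), Oasl1 (-1.34, others -0.56 to -0.45) and Dtx3l (-1.65, others -1.19 to -1.15). SS labelled male 3 was low for Isg20 (2.47, others 3.78 to 4.04), SI labelled male 6 was high for Cmpk2 (-2.77, others -3.06 to -3.02), and SS labelled male 2 was high for Herc6 (-5.31, others -5.66 to -5.62), whose signal was well above background on 1 of the 4 arrays of that group.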

How the results depend on the processing

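Over the 10 other settings Ifit2 stayed higher in SS in all mice, from 0.91 to 2.19, and passed in 9; without the sex label as a term it was 1.11 (limma adjusted p = 0.0540). The count of changed genes in all mice was 3 (Ifit2, Trim21 and Dtx3l) with the deposited log2 table and with only probes above background on all 14 arrays, 1 with median scaling, 1 without a filter on dim probes (Ifit2 both times) and 0 without the sex label term. In labelled males it was 2 with normexp, where Ifit2 was 0.89 (limma adjusted p = 0.0396). In labelled females it was 0 with median scaling, quantile normalization, normexp, the deposited log2 table and no filter, with Ifit2 at 1.47, 1.45, 0.94, 1.33 and 1.45 (limma adjusted p = 0.0597, 0.0540, 0.0725, 0.466 and 0.144). The cause was not tested. Leaving out 1 mouse gave counts from 1 to 4 in all mice, 0 to 9 in labelled males and 0 to 2 in labelled females, and Ifit2 differences from 1.13 to 1.37, 0.88 to 1.30 and 1.26 to 1.64. The median of the 36 genes ran from -0.46 to -0.24 without 1 mouse and from -0.43 to -0.26 otherwise. The correlation of Ifit2 with the other genes was 0.30 with the percentile of all probes, 0.18 with quantile normalization and -0.0459 to 0.21 without 1 mouse. No paired analysis was possible because SS and SI mice share no replicate numbers. With 2 SI labelled females, differences in that group rest on 2 arrays. Signal near background limits Herc6 and Eif2ak2.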
